A study of Mus musculus with 60 samples.

Results

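Mouse embryonic stem (ES) cells that lack the long noncoding RNA Lnc956 were compared after 3 h of etoposide and at 0 h by RNA-seq, in 4 of the 60 samples of the series. The samples were taken by their labelled genotype and time, which gave 2 libraries of knockout cells at 3 h and 2 at 0 h. The series as a whole measured transcript levels and the chromatin binding of P53 and KLF4 in wild-type (WT) and Lnc956-deficient ES cells with and without etoposide, an inhibitor of topoisomerase II that leaves double-strand breaks in DNA. All cells grew in serum-replacement medium with LIF, and total RNA was extracted with Trizol. Of the knockout libraries at 3 h, replicate 1 is labelled 1 uM etoposide and replicate 2 is labelled 10 uM, although the treatment protocol names 1 uM alone, so that dose and replicate cannot be told apart. The libraries at 0 h were untreated. The cells set beside them were Lnc956 knockout cells with P53 knockdown (combined-loss cells) and P53 knockdown cells, each with 2 libraries at 3 h of 1 uM and 2 at 0 h. The labels do not say how Lnc956 was deleted, how many clones were used or whether replicates were separate cultures, so a p value measures only how far the libraries scatter, and that scatter may be technical. WT cells at 0 h and 3 h were not analysed here, and no row of the table is named Lnc956, so the knockout itself was not checked.

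P53 is a transcription factor that damage signalling stabilises, and it then raises genes that arrest the cell cycle, such as Cdkn1a, that restrain P53 itself, such as Mdm2, or that start apoptosis, such as Bbc3. Immediate early genes such as Fos are transcribed within minutes of a stress or growth signal without new protein synthesis. In ES cells the FGF and ERK pathway induces its own inhibitors of the Sprouty family, the Nodal and TGF-beta pathway induces the inhibitor Smad7, and factors such as Nanog and Esrrb hold the cells in the naive pluripotent state.

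Few genes passed the test in knockout cells at 3 h. Of 14223 genes tested, 49 rose (0.345%) and 15 fell (0.105%), 64 in all (0.45%) at a limma adjusted p under 0.05, and 1232 (8.66%) had an unadjusted p under 0.05. A level here is in FPKM, the number of sequenced fragments divided by transcript length and library total, and a change is a difference of log2(FPKM + 1) between 3 h and 0 h, which understates the change of low genes. On that scale 19 of the genes that rose and 6 of those that fell changed at least 2-fold. The 6 include the small nucleolar RNA rows Snora34 and Snora16a, which are listed at 0 in both 3 h libraries and give no measured fold. The median change was 0.89 for the genes that rose and -0.74 for those that fell, against 0.02 for all genes tested. Risers had a median level of 6.04 FPKM at 3 h and 2.52 FPKM at 0 h, and the genes that fell had a median of 9.12 FPKM at 3 h and 25.2 FPKM at 0 h, where all genes tested had medians of 6.24 and 5.94 FPKM. After median scaling 44 genes were higher and 26 lower, after quantile scaling 38 and 19, and with a pseudocount of 5 they were 32 and 29, so the size of the excess of higher genes depends on these settings.

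**Figure D1:**
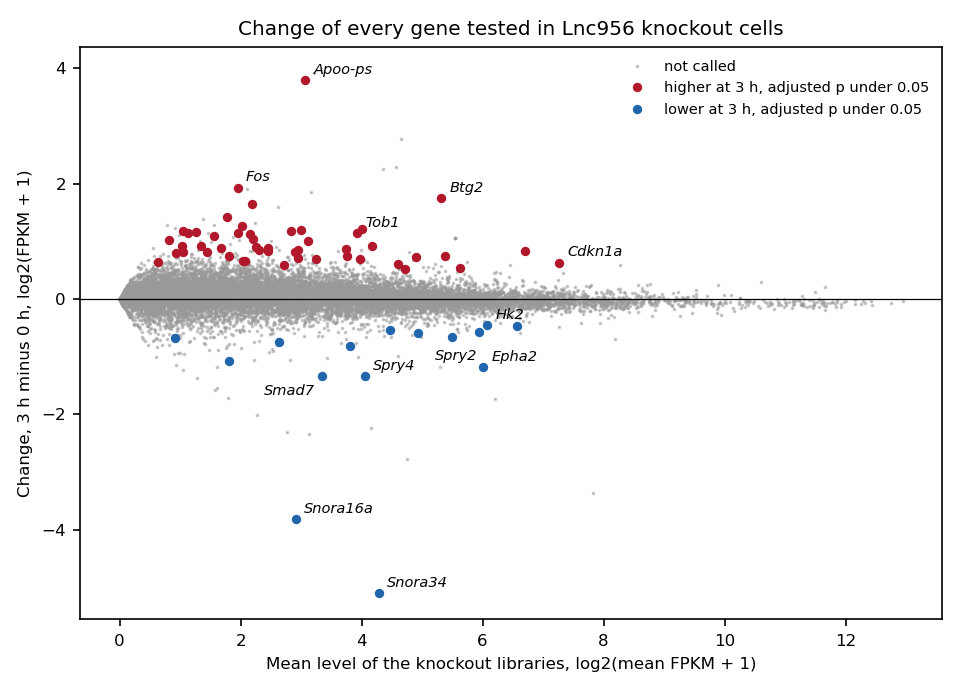
Change between 3 h and 0 h in knockout cells (vertical, difference of log2(FPKM + 1)) against the mean level (horizontal, log2) for the 14223 genes tested. Red points are the 49 genes called higher at 3 h and blue points the 15 called lower, and Snora34 and Snora16a are listed at 0 in both 3 h libraries, so their distance from 0 is no measured fold.

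The knockout libraries held ES cell transcripts at both times. The 8 ES cell markers summed to 6124 and 6028 FPKM at 3 h, against 6870 and 6679 FPKM at 0 h. The 17 fibroblast and feeder markers summed to 1799 and 1746 FPKM at 3 h, against 1767 and 1747 FPKM at 0 h, with no marker at 0, so these libraries carried such RNA in similar amounts at both times. In bulk RNA, fewer cells of a type and less RNA per cell cannot be told apart. The 9 neural markers in the table summed to 80.7 and 80.9 FPKM at 3 h, against 68.2 and 71.9 FPKM at 0 h, and the 9 2-cell-like markers to 59.2 and 63.0 FPKM, against 49.4 and 51.5 FPKM. Trophectoderm markers summed to 39.1 to 43.4 FPKM at 3 h, against 46.2 to 49.5 FPKM at 0 h, and mesoderm markers to 2.55 to 3.03 FPKM, against 2.34 to 2.46 FPKM. Endoderm markers summed to 76.7 to 77.3 FPKM at 3 h, against 76.8 to 80.6 FPKM at 0 h. The sums did not overlap between the times for the ES cell, neural, 2-cell-like, trophectoderm and mesoderm markers, and their part in the results was not tested. Of single genes 6621 of the 14223 tested had no overlap between the times, so a lack of overlap alone is common. Of these 7 marker lists only the neural one had a member that passed, Nkx2-9. It was 1 of 5 neural genes tested, while 0.345% of all genes rose. The depth of the libraries is unknown, and between 11245 and 11531 genes reached 1 FPKM in each of the 4.

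The P53 targets that passed covered arrest and death as well as a receptor gene that fell. Of 34 P53 targets tested, 3 rose (Btg2, Cdkn1a and Bbc3), against 0.345% of all genes, 1 fell (Epha2), against 0.105% of all genes, and 30 did not pass. The median change of the 34 was 0.28, against 0.02 for all genes, and 26 of the 34 had a positive change, against 55.6% of all genes. The transcript of P53 itself was level. Trp53 had 293 and 280 FPKM at 3 h, against 301 and 287 FPKM at 0 h (change -0.04 ± 0.10 SE, n = 2, limma adjusted p = 0.982).

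Btg2, an antiproliferative P53 target (chromosome 1, 134074865 to 134079155, mm10), had 60.02 and 60.6 FPKM at 3 h, against 16.8 and 17.9 FPKM at 0 h. Both 3 h libraries stood over 3 times the level of either 0 h library, with a change of 1.74 ± 0.17 SE (n = 2, limma adjusted p = 1.07e-05). Cdkn1a, which encodes the inhibitor p21 of cyclin-dependent kinases, had 184 and 189 FPKM at 3 h, against 120.2 and 119.6 FPKM at 0 h. Its replicates lay close together and the groups did not overlap (change 0.63 ± 0.10 SE, n = 2, limma adjusted p = 0.00349). Without 3 h replicate 2 or without 0 h replicate 1 Cdkn1a no longer passed, with a highest adjusted p of 0.0693 over the 4 fits that left out 1 library each. Bbc3, which encodes the death factor PUMA, had 23.7 and 21.6 FPKM at 3 h, against 11.7 and 11.2 FPKM at 0 h (change 0.92 ± 0.17 SE, n = 2, limma adjusted p = 0.0132). It passed in none of those 4 fits (highest adjusted p = 0.152). Mdm2, the ligase that limits P53, had 55.1 and 61.2 FPKM at 3 h, against 41.1 and 44.7 FPKM at 0 h, and did not pass (change 0.43 ± 0.10 SE, limma adjusted p = 0.0751). Ccng1, a cyclin gene and P53 target, had 61.2 and 67.0 FPKM at 3 h, against 38.9 and 42.6 FPKM at 0 h (limma adjusted p = 0.239).

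Sequences of the promoters were taken from RefSeq (GRCm38.p6, the mm10 build), from 250 bases before to 50 bases after a gene's start, for 11276 of the tested genes, 41 of the risers and 8 of the genes that fell. The windows were searched on both strands for the P53 consensus, a full site of 20 bases without a spacer, and the limit of 3 mismatches was set after the matches had been seen. A gene with more than 1 start was counted by its best window, so genes with more starts had more chances of a match. A full site with at most 3 mismatches lay in 6 of the 41 risers (14.6%), in 1 of the 8 genes that fell (Sgk1) and in 6.75% of the 11276 genes. With at most 2 mismatches it lay in 3 risers (7.32%) and 0.922% of all these genes, and with at most 1 in Cdkn1a and 7 further genes, 0.0710% of all. Cdkn1a has an upstream window (chr17:29090729-29091028, plus strand) and a further one downstream (chr17:29093519-29093818). The match lies 51 bases before the gene start in the upstream window and is not a site next to the downstream start. The upstream window is printed whole because it holds the closest match among the called genes, in capitals.
Cdkn1a promoter: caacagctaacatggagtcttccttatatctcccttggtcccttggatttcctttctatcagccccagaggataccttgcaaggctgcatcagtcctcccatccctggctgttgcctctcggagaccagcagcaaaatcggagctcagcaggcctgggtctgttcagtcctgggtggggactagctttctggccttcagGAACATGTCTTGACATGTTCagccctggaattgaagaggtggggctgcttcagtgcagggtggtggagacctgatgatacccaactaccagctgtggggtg
The matches of the other 6 called genes within that limit are shown with 15 bases on either side, on the strand of the gene, so that they can be compared. The match of Mir22hg, the host gene of miR-22, begins 169 bases before the start and has 2 mismatches, that of Zfp365 63 bases before with 2, that of Bbc3 97 bases before with 3, and that of Nkx2-9 24 bases before with 3. The match of Cir1 begins 139 bases before the start and that of Sgk1 28 bases before, each with 3 mismatches. Bbc3 and Sgk1 have further windows too, and each distance is to the start in the window that holds the match.
Mir22hg: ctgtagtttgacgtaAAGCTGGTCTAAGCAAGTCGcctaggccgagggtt
Zfp365: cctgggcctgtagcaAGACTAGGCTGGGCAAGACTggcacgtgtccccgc
Bbc3: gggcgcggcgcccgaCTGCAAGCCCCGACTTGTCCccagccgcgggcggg
Nkx2-9: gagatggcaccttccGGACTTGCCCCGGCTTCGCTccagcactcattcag
Cir1: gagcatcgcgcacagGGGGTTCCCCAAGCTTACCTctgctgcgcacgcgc
Sgk1: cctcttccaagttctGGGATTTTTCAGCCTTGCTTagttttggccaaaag
A P53 peak lay over the windows of Cdkn1a, Mir22hg and Bbc3 but not over those of Zfp365, Nkx2-9, Cir1 and Sgk1. The best match in the window of Btg2, which does carry a P53 peak, had 4 mismatches, and 30.9% of all genes with a window held a match with at most 4. A match is a description of the letters and does not show binding.

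The P53 peaks came from WT cells and Lnc956 knockdown cells treated with 10 uM etoposide, with no time in the labels, since P53 binding in knockout cells was not analysed here, and the antibody was against P53 phosphorylated at serine 15. A gene was counted when a peak seen in both libraries of a group lay within 5 kb of its start. Of the 41 risers with a start, 14 (34.1%) had such a P53 site, and 2 of the 8 genes that fell (Epha2 and Hk2). By comparison 2043 of all 11276 genes (18.1%) had one. Among genes with a P53 site 0.783% were called, against 0.357% of those without and 0.435% of all. The median change of the genes with a site was 0.02, the same as for all genes. The count of 16 called genes with a site was 7 to 9 when any 1 of the 4 knockout libraries was left out. The risers with a P53 site were Arl4d, Bbc3, Btg1, Btg2, Ccno, Cdkn1a, Ddit4, Ddit4l, Dnajb5, Hexim1, Mir22hg, Nanos1, Snhg20 and Tob1.

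At Cdkn1a the P53 peak over the upstream start lay at chr17:29089468-29092379 in WT cells. Its fold enrichments, as given by the authors, were 14.5 and 15.5 in treated Lnc956 knockdown cells, and 14.2 and 13.5 in treated WT cells. At Btg2 (chr1:134079198-134079660 in WT cells) they were 9.64 and 7.98 in treated knockdown cells, and 9.63 and 9.53 in treated WT cells. At Tob1, an antiproliferative gene of the same family as Btg2, they were 6.27 and 4.99 in treated knockdown cells, and 5.57 and 6.52 in treated WT cells. At each of these genes the peak was seen in all 4 treated libraries.

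KLF4 sites, measured in the knockout cells themselves, lay near most tested genes. In knockout cells treated with 10 uM for 3 h, 7313 genes (64.9%) had a KLF4 site within 5 kb of a start, among them 29 of the 41 risers (70.7%) and 5 of the 8 genes that fell. In untreated knockout cells they were 7795 genes (69.1%), 35 risers (85.4%) and 5 of the genes that fell. Without 1 knockout RNA library each, the 40 called genes with a site in untreated cells were 17 to 33. A site was seen in treated cells only near 511 genes (4.53% of all), none of them a riser, and in untreated cells only near 993 genes (8.81%). Among the 993 were 6 risers (14.6% of risers): Arl4d, Csrnp2, Dkc1, Nkx2-9, Rprm and Zfp365. At Btg2 the authors' fold of the KLF4 peak was 11.3 and 10.6 in treated and 26.9 and 21.4 in untreated knockout cells, and at Hk2 25.3 and 24.8 in treated and 22.6 and 19.5 in untreated cells. Folds of lists of different lengths are given side by side and were not tested. The Klf4 transcript had 15.6 and 17.4 FPKM at 3 h, against 15.7 and 18.4 FPKM at 0 h, and did not pass (limma adjusted p = 0.987).

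Outside the P53 list the genes that rose most encode a mixture of signalling proteins and transcription factors. Fos, the immediate early partner of Jun in the AP-1 factor, had 4.91 and 5.30 FPKM at 3 h, against 0.407 and 0.825 FPKM at 0 h. It was the only 1 of 19 immediate early genes that passed (change 1.93 ± 0.25 SE, n = 2, limma adjusted p = 0.000342), with a list median of 0.15. Over all genes 0.345% rose. Atf3, a stress-induced factor of the same list, had 7.76 and 7.26 FPKM at 3 h, against 4.34 and 3.93 FPKM at 0 h, and missed the threshold (limma adjusted p = 0.0563). Tob1 had 20.0 and 19.7 FPKM at 3 h, against 8.34 and 8.59 FPKM at 0 h (change 1.14 ± 0.10 SE, n = 2, limma adjusted p = 2.38e-06). Both values at 3 h were more than 2-fold above either value at 0 h. The related Btg1 rose as well, by 0.75, while Tob2 and Btg3 did not pass (limma adjusted p = 0.175 and 0.845), and these relatives were picked after their values were seen.

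Nkx2-9, a homeobox gene active in the ventral neural tube, had 4.69 and 3.34 FPKM at 3 h, against 0.834 and 0.892 FPKM at 0 h (change 1.42 ± 0.17 SE, n = 2, limma adjusted p = 8.46e-05). The 3 h libraries of Nkx2-9 differed from each other, with the one labelled 1 uM higher, and both lay above the 0 h libraries. Sp6, a zinc-finger transcription factor gene, had 4.68 and 4.74 FPKM at 3 h, against 1.46 and 1.31 FPKM at 0 h (change 1.26 ± 0.13 SE, limma adjusted p = 1.99e-05). Ddit4l, a relative of the mTORC1 inhibitor gene Ddit4, had 10.7 and 9.42 FPKM at 3 h, against 3.75 and 3.88 FPKM at 0 h (change 1.20 ± 0.13 SE, limma adjusted p = 4.28e-05). Ier5l had 21.8 and 20.9 FPKM at 3 h, against 8.66 and 8.68 FPKM at 0 h (change 1.21, limma adjusted p = 0.000904). In each of these 4 genes both 3 h libraries lay above both 0 h libraries, as their choice required and as in all 49 risers. In either direction 6621 of the 14223 genes tested had no overlap, so this is no support by itself.

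Other risers of at least 1 on this scale were the Ras-related Rasd1 (1.18), the lncRNA 2810408I11Rik (1.18), the segmentation factor gene Mesp2 (1.16), the Notch feedback gene Nrarp (1.15), the epidermal factor gene Zfp750 (1.15), the cell cycle arrest gene Rprm (1.13), Mylip (1.09), which encodes a ligase that degrades the LDL receptor, Rasl11b (1.03), the hair cell factor gene Pou4f3 (1.01) and the homeobox gene Hhex (1.01). These 10 were low, with means of 1.35 to 10.5 FPKM at 3 h. Apoo-ps, a transcribed pseudogene, had the largest fitted change among the genes that rose (3.80 ± 0.62 SE, limma adjusted p = 0.00317), with 11.8 and 17.5 FPKM at 3 h, against 0.216 and 4.59e-05 FPKM at 0 h. Its level also varied between libraries of the other lines, and reads of a pseudogene can be shared with its parent gene, so its value is uncertain. Of 16 ATF4 amino acid stress genes only Ddit4 rose, against 0.345% of all genes. It had 130.0 and 133.5 FPKM at 3 h, against 74.8 and 72.1 FPKM at 0 h (limma adjusted p = 0.0319). Of 7 heat shock genes only Hspa1a rose, against the same 0.345% of all genes. It had 3.24 and 3.03 FPKM at 3 h, against 1.29 and 1.17 FPKM at 0 h (limma adjusted p = 0.0132). Hspa1b, its near-identical neighbour, did not pass (0.0722), and reads can be split between the 2 copies. Ddit4 and Hspa1a each passed in none of the 4 fits without 1 library.

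A further 25 risers had changes of 0.52 to 0.92. They included Hexim1, which encodes an inhibitor of the elongation factor P-TEFb (57.2 FPKM on average at 3 h, against 39.2 FPKM at 0 h, change 0.54), Dkc1, which encodes a pseudouridine synthase (28.3 and 18.3 FPKM, 0.61), the thiamine transporter gene Slc19a2 (29.8 and 20.5 FPKM, 0.52) and the arginine-serine protein gene Rsrp1 (51.0 and 30.3 FPKM, 0.74). Genes of signalling proteins among them were the phosphatase gene Dusp2 (0.92), the Wnt receptor gene Fzd10 (0.89), the FGF receptor adaptor gene Frs3 (0.83), and Arl4d, Rasl11a and Rassf10 (0.81 to 0.86). The orphan nuclear receptor gene Nr4a2 (0.79) was low, at 1.42 FPKM on average at 3 h and 0.387 FPKM at 0 h. The others were Krt10, Ccno, Mir22hg, Chac2, Csrnp2, Nanos1, Snhg20, Nefh, Dnajb5, Mzt1, Cir1, Wbp4, Pvrl4 and Zfp365.

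**Figure D2:**
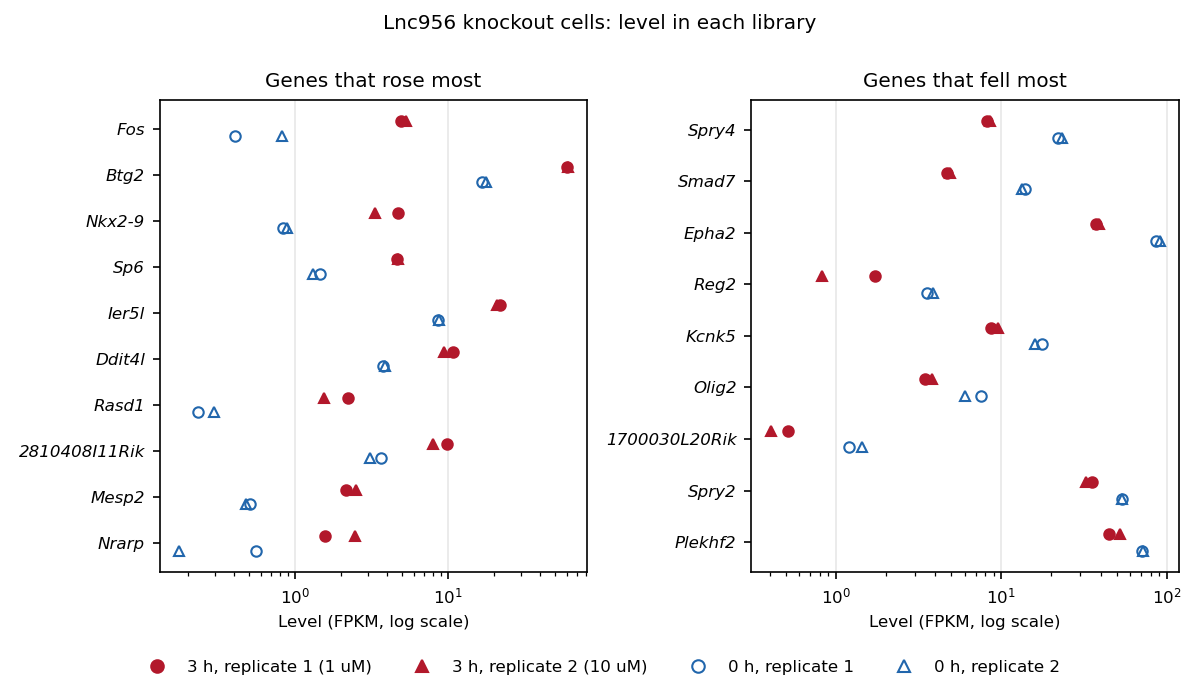
Level in each knockout library (horizontal, FPKM on a log scale) for the genes that rose most (left) and fell most (right), with 3 h in filled red above 0 h in open blue and replicates as circles and triangles. In every gene shown the 3 h and 0 h libraries do not overlap, and at 3 h the circle is the library labelled 1 uM and the triangle the one labelled 10 uM. Apoo-ps and the snoRNA rows, with values at or near 0, are among the genes not drawn.

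The genes that fell included feedback inhibitors of growth factor pathways. Spry4, an inhibitor of receptor tyrosine kinase signalling, had 8.23 and 8.56 FPKM at 3 h, against 22.2 and 23.3 FPKM at 0 h (change -1.34 ± 0.22 SE, n = 2, limma adjusted p = 0.00300). Spry2, of the same family, had 35.4 and 32.6 FPKM at 3 h, against 53.9 and 54.1 FPKM at 0 h (change -0.65 ± 0.10 SE, n = 2, limma adjusted p = 0.00205). They were the 2 of 12 FGF and ERK feedback genes that passed, against 0.105% of all genes that fell, and the list median was -0.13. Dusp6, an ERK phosphatase gene, had 39.7 and 40.9 FPKM at 3 h, against 52.5 and 55.1 FPKM at 0 h, and did not pass (limma adjusted p = 0.0733). Spry2 no longer passed without 3 h replicate 2 (0.0648).

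Smad7 had 4.70 and 4.90 FPKM at 3 h, against 13.96 and 13.3 FPKM at 0 h. It had the smallest p among named protein-coding genes (change -1.33 ± 0.10 SE, n = 2, limma adjusted p = 2.91e-07) and was the only 1 of 12 Nodal pathway genes that passed. Over all genes 0.105% fell. Lefty1, a Nodal antagonist and target, had 16.4 and 14.5 FPKM at 3 h, against 31.2 and 31.5 FPKM at 0 h, without overlap, but did not pass (limma adjusted p = 0.125). Epha2, a receptor tyrosine kinase gene and P53 target (chromosome 4, 141301221 to 141329384), had 37.6 and 38.9 FPKM at 3 h, against 86.0 and 90.6 FPKM at 0 h (change -1.19 ± 0.11 SE, n = 2, limma adjusted p = 7.55e-06). The neural factor gene Olig2 fell by 0.74, the potassium channel gene Kcnk5 by 0.82, Reg2, a secreted lectin gene, by 1.08, and the kinase gene Sgk1 by 0.46. Plekhf2, the GTPase-activating protein gene Dlc1 and the lncRNA 1700030L20Rik fell by 0.53 to 0.67. The lncRNA was near the floor, with 0.513 and 0.404 FPKM at 3 h, against 1.204 and 1.445 FPKM at 0 h. It reached 1 FPKM in no other knockout library, nor in the other 2 lines at 0 h or 3 h. Among these libraries it met the filter only through the group where it was high, so its call is no support for a fall.

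Of 15 low-oxygen and glycolysis genes 1 fell, against 0.105% of all genes. This was Hk2, which encodes a hexokinase, with 56.3 and 55.1 FPKM at 3 h, against 77.9 and 75.5 FPKM at 0 h (change -0.45 ± 0.10 SE, n = 2, limma adjusted p = 0.0421). It passed in none of the 4 fits without 1 library. The other 14 did not pass, the list median was -0.35, and 1 of the 15 had a positive change, against 55.6% of all genes.

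No gene of the pluripotency lists passed at 3 h. None of 17 naive, 15 general and 11 formative and primed pluripotency genes passed, against 0.45% of all genes, with medians of -0.22, -0.16 and -0.12. A positive change was seen in 2, 4 and 2 of them, against 55.6% of all genes. Nanog had 161 and 174 FPKM at 3 h, against 220.4 and 227 FPKM at 0 h (change -0.42 ± 0.10 SE, n = 2, limma adjusted p = 0.0915). Esrrb had 85.1 and 89.7 FPKM at 3 h, against 115 and 112 FPKM at 0 h (limma adjusted p = 0.215). Sox2 had 60.1 and 66.9 FPKM at 3 h, against 77.7 and 86.5 FPKM at 0 h (limma adjusted p = 0.338). In these 3 genes both 3 h libraries lay below both 0 h libraries, as they did in Foxd3, a factor gene of the general list, at 9.62 and 8.81 FPKM at 3 h, against 18.9 and 19.9 FPKM at 0 h (limma adjusted p = 0.0698). Pou5f1, which encodes OCT4, had 1300.0 and 1286 FPKM at 3 h, against 1421 and 1357 FPKM at 0 h, and Zfp42 had 35.6 and 38.1 FPKM at 3 h, against 37.2 and 40.4 FPKM at 0 h. Over all tested genes 6621 of 14223 had no overlap between the 3 h and 0 h libraries, so that this alone is common.

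Of 30 gene lists, 22 had no member that passed, with medians between -0.23 and 0.24. Among them were 27 DNA repair and damage signalling genes (median 0.08), 20 G1/S and replication genes (-0.02), 19 G2/M genes (0.00), 16 apoptosis genes outside the P53 list (0.02), 84 ribosomal protein genes (-0.07) and 78 nuclear oxidative phosphorylation genes (-0.04). The 22 lists held 474 tested genes, and 0.45% of all genes tested passed. Of the 84 ribosomal protein genes 5 had a positive change, against 55.6% of all genes tested. Rps27, a ribosomal protein gene, had 9.47 and 9.72 FPKM at 3 h, against 12.6 and 873 FPKM at 0 h, so 1 library at 0 h stood apart from the other 3.

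**Figure D3:**
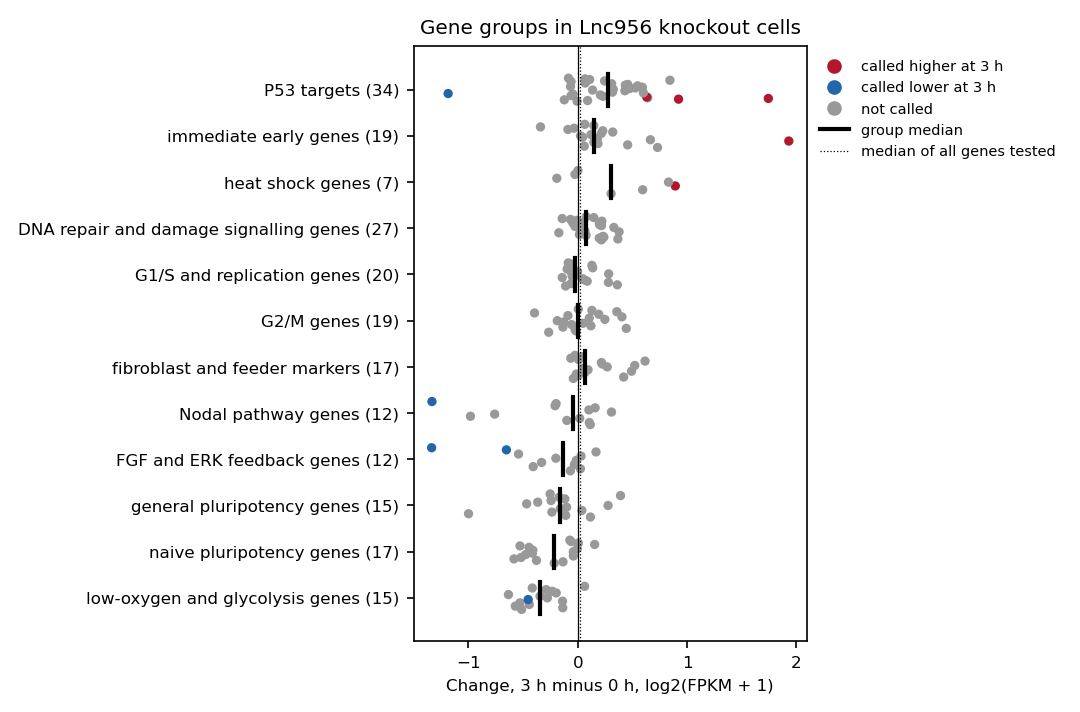
Change between 3 h and 0 h in knockout cells (horizontal, difference of log2(FPKM + 1)) for 12 gene lists, with 1 point per gene tested, red where called higher and blue where called lower at 3 h, and a black bar at the list median. The P53 targets have a median of 0.28 and reach 1.74 for Btg2, and the low-oxygen and glycolysis genes have a median of -0.35, while the median of all genes (dotted) is 0.02.

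Rows of 2 small nucleolar RNAs were listed at 0 in both 3 h libraries. Snora34 had 20.7 and 53.2 FPKM, and Snora16a 12.9 and 13.2 FPKM at 0 h, and both were listed at 0 in the other 26 libraries of the time course too. They are 118 and 136 bases long and lie inside Kansl2 (chromosome 15) and Snhg12 (chromosome 4). The host Kansl2 had 49.0 and 46.7 FPKM at 3 h, against 50.5 and 51.2 FPKM at 0 h, and Snhg12 56.6 and 57.6 FPKM at 3 h, against 56.4 and 59.0 FPKM at 0 h, and neither passed. Of 110 rows of such small RNAs between 0 and 9 were above 0 in any library. An FPKM of 0 can be a failed estimate for so short a transcript, so these 2 rows are given as listed and with no fold. They entered the test only through the 0 h knockout libraries, and the scatter in their fit rests mostly on libraries at 0. Their calls are kept in the counts of genes that fell but are no support for a change.

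Risers were short genes. Their median genomic length was 4.66 kb, against 19.0 kb for the genes that fell and 20.7 kb for all genes tested. Of the 49, 25 were among the 2161 genes under 5 kb, 15 among the 3502 of 5 to 15 kb, 9 among the 5061 of 15 to 50 kb, and none among the 2654 of 50 to 150 kb or the 800 longer ones. The median change of all genes was 0.01 for genes under 5 kb and 0.01 for those of 150 kb or more, and after quantile scaling it was 0.0013 and -0.06.

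Of the 49 risers 27 were higher in the library labelled 10 uM than in the one labelled 1 uM, with a median difference of 0.03 on the log2 scale, and of the 15 genes that fell 9 were higher there, with a median difference of 0.02. Since genes whose replicates lie close together pass more readily, these values do not compare the labelled doses. Without the library labelled 10 uM 36 genes were called, among them 23 of the risers and 7 of the genes that fell, and the counts were 43 without 3 h replicate 1, 35 without 0 h replicate 1 and 56 without 0 h replicate 2. All 64 kept their direction in these 4 fits. Called in all 4 were 18 risers, among them Btg1, Btg2, Cir1, Ddit4l, Fos, Hhex, Ier5l, Krt10, Mesp2, Mylip, Nanos1, Nkx2-9, Nrarp, Rasd1, Sp6, Tob1 and Zfp750, and 6 genes that fell, which were Epha2, Reg2, Smad7, Spry4 and the 2 snoRNA rows. A fit to the 4 knockout libraries alone called 3 genes, Btg2, Epha2 and Snora16a. The 2 snoRNA rows are above 0 only at 0 h in knockout cells, so their passing in these fits follows from the values at 0 and is no support.

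With P53 knocked down in addition to the loss of Lnc956 none of the 64 genes passed, nor did any other gene tested. A gene that did not pass there has not been shown to stay level. In combined-loss cells 0 of 14223 genes were called at 3 h against 0 h by limma, and 454 (3.19%) had an unadjusted p under 0.05. The genes that rose in knockout cells had a median change of 0.11 in combined-loss cells, with 36 of 49 positive, and those that fell had a median of 0. All genes tested had a median of 0.02 there, with 55% positive. Trp53 stood at 280 to 301 FPKM over the 4 knockout libraries, against 52.5 to 59.97 FPKM over the 4 combined-loss libraries. The difference between the responses of knockout and combined-loss cells was tested as an interaction and passed for 15 genes (0.105%), 10 with a higher (0.0703%) and 5 with a lower response (0.0352%) in knockout cells, while 5.26% of genes had an unadjusted p under 0.05. Among the 64 genes it passed for 8 risers and 5 that fell, the snoRNA rows among the latter. The 64 were picked by the knockout change that the interaction contains, so these counts are no separate support for a difference.

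Btg2 had 12.8 and 13.1 FPKM in combined-loss cells at 3 h, against 13.6 and 10.5 FPKM at 0 h. Its response in knockout cells was higher by 1.64 ± 0.24 SE (n = 2, limma adjusted p = 0.00505). Cdkn1a had 108 and 112 FPKM in combined-loss cells at 3 h, against 129 and 117 FPKM at 0 h, and the response of the knockout was higher by 0.79 ± 0.15 SE (n = 2, limma adjusted p = 0.0348). Smad7 had 27.7 and 26.8 FPKM at 3 h, against 31.5 and 29.8 FPKM at 0 h, and Epha2 79.5 and 77.0 FPKM, against 92.4 and 82.9 FPKM, in combined-loss cells. The knockout's response was lower by 1.17 for Smad7 and by 1.03 for Epha2 (limma adjusted p = 0.000663 and 0.00725). For Fos, at 6.86 and 6.07 FPKM at 3 h, against 3.31 and 2.93 FPKM at 0 h in combined-loss cells, the difference did not pass (limma adjusted p = 0.605), nor did it for Bbc3 (0.56), Spry4 (0.239) or Hk2 (0.174). The lines differed before treatment too. Zfp42 had 37.2 and 40.4 FPKM in knockout cells at 0 h, 612 and 602 FPKM in combined-loss cells and 434 and 441 FPKM in P53 knockdown cells, and the part of such differences in the unlike responses was not tested.

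P53 knockdown cells, labelled with no loss of Lnc956, held 94.6 to 112 FPKM of Trp53 over their 4 libraries. At 3 h against 0 h 406 genes rose (2.85%) and 331 fell (2.33%), 737 in all (5.18%). Of the 49 risers of the knockout 33 rose and 1 fell there, with a median change of 0.79, and of the 15 that fell 9 fell, with a median of -0.55. Btg2 had 92.3 and 161 FPKM in P53 knockdown cells at 3 h, against 25.7 and 33.8 FPKM at 0 h, and Smad7 9.81 and 11.5 FPKM, against 20.4 and 19.9 FPKM. Of the P53 targets 17 rose and 1 fell there, with a median of 0.57. The difference between the responses of knockout and P53 knockdown cells passed for 42 genes (0.295%), 24 higher (0.169%) and 18 lower (0.127%) in the knockout, with 8.79% at an unadjusted p under 0.05, and among the 64 for 3 risers (Apoo-ps, Cir1 and Pvrl4) and 4 that fell (Reg2, 1700030L20Rik and the snoRNA rows). Cir1, which encodes a corepressor, had 4.02 and 4.36 FPKM in knockout cells at 3 h, against 2.21 and 2.33 FPKM at 0 h, and 19.6 and 16.9 FPKM in P53 knockdown cells at 3 h, against 18.8 and 20.5 FPKM at 0 h. Among naive genes Zfp42 differed, at 35.6 and 38.1 FPKM in knockout cells at 3 h, against 37.2 and 40.4 FPKM at 0 h, and at 213 and 239 FPKM in P53 knockdown cells at 3 h, against 434 and 441 FPKM at 0 h (difference 0.88 ± 0.12 SE, n = 2, limma adjusted p = 0.00157). The responses of the knockout in both differences rest on the same 4 libraries. The 64 genes were picked by that same response, so counts among them are no separate support.

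**Figure D4:**
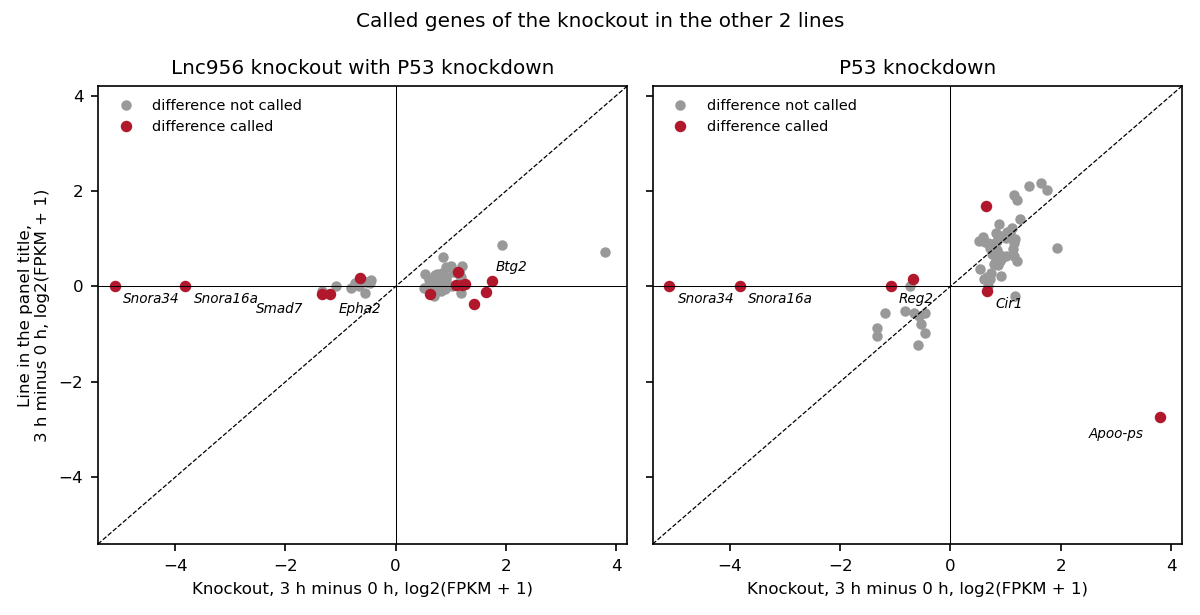
Change between 3 h and 0 h of the 64 called genes in knockout cells (horizontal) against that in combined-loss cells (left panel, vertical) and P53 knockdown cells (right panel, vertical), all as differences of log2(FPKM + 1), with red where the difference of the responses was called. The points lie near 0 on the vertical axis in combined-loss cells, with medians of 0.11 for risers and 0 for genes that fell, and nearer the dashed line of equal change in P53 knockdown cells, with medians of 0.79 and -0.55. The 64 genes were picked by their change in knockout cells, which by itself favours a smaller change in the other lines.

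Knockout libraries at 6 h and 9 h stand under other column names in the table, 1 of the 6 h libraries is labelled 10 uM, and their levels are set beside those at 0 h and 3 h without a test. Some genes differ widely between these sets of libraries, such as the heat shock gene Hsp90aa1 (222 and 267 FPKM at 0 h, 341 and 396 FPKM at 3 h, 1592 and 1427 FPKM at 6 h) and the fibroblast marker Dcn (31.2 and 35.9 FPKM at 0 h, 44.9 and 50.2 FPKM at 3 h, 8.13 and 7.25 FPKM at 6 h). A difference between the sets of libraries and a change with time can therefore not be told apart across 3 h and 6 h. Btg2 had 16.8 and 17.9 FPKM at 0 h, 60.02 and 60.6 FPKM at 3 h, 89.2 and 86.0 FPKM at 6 h and 93.9 and 100.3 FPKM at 9 h. Nkx2-9 reached 64.3 and 58.9 FPKM at 6 h and 78.4 and 84.7 FPKM at 9 h, far above its 3 h level. Cdkn1a was at 170.1 and 158 FPKM at 6 h and at 171 and 182 FPKM at 9 h, close to its 3 h level. Among the genes that fell Spry4 was lower still at 6 h (5.71 and 4.80 FPKM) and 9 h (2.81 and 3.89 FPKM), as was Hk2 (15.9 and 17.8 FPKM at 6 h, 14.2 and 16.4 FPKM at 9 h). Smad7 stood above its 0 h level at both later times, at 19.5 and 16.8 FPKM at 6 h and 17.2 and 17.4 FPKM at 9 h.

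**Figure D5:**
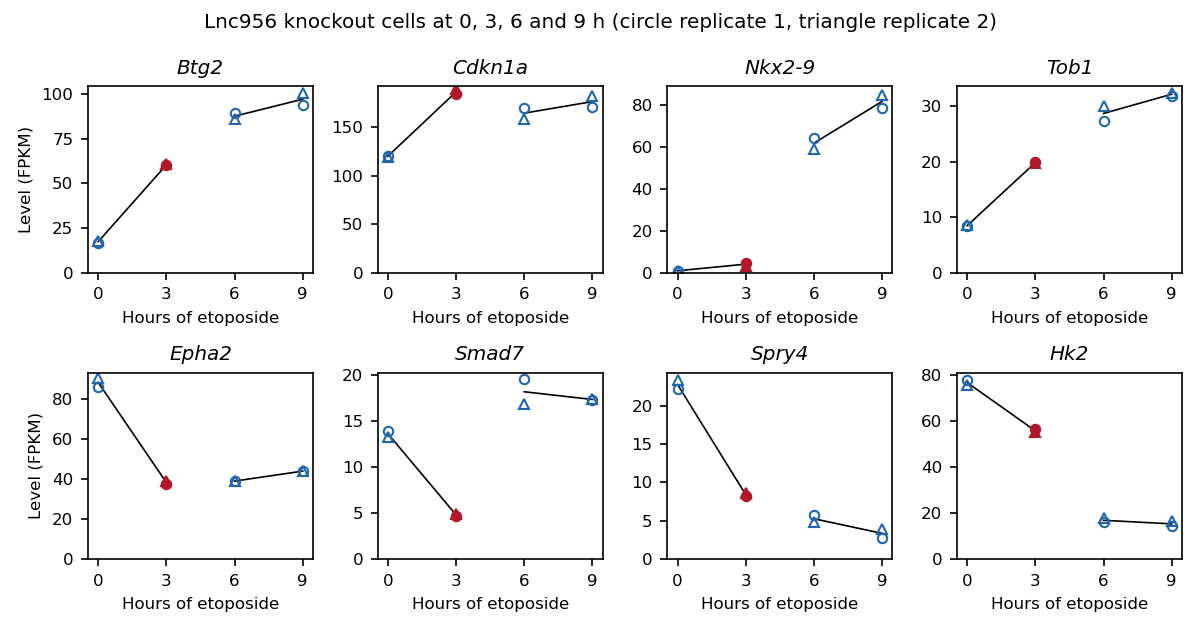
Levels (FPKM) of 4 genes that rose and 4 that fell in knockout cells at 0, 3, 6 and 9 h of etoposide, with circles for replicate 1, triangles for replicate 2, lines through the means that are broken between 3 h and 6 h, and the 3 h libraries in red. Btg2, Tob1 and Nkx2-9 are higher at 6 h and 9 h than at 3 h, and Smad7 is below its 0 h level at 3 h and above it at 6 h and 9 h.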

How the data were processed

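The deposited time-course table gives FPKM per gene and library. The submitters' processing notes name TopHat2 2.0.8, Cufflinks and Cuffdiff 2.1.1, Bowtie2 2.1.0, MACS2 2.2.7.1 and the mm10 build, with no roles. The deposited peak lists give each peak's fold enrichment and -log10 q, and replicates were called separately. Strand handling and scaling between libraries: not given in the sources used here. All 28 labelled libraries of 14 groups were fitted in 1 model by limma 3.58.1 under R 4.3.3, on log2(FPKM + 1) (trend in the variances, adjusted p by Benjamini-Hochberg over all genes tested, threshold 0.05). Of 24314 genes, 14223 reached 1 FPKM in at least 2 libraries. The fit was tested on simulated data. Columns were matched to labels by name, those of combined-loss cells by elimination, and 4 columns of no labelled sample were left out. Peaks in both libraries of a group (1 bp overlap) were assigned within 5 kb of a start. Named genes were the 12 that rose and 12 that fell most, up to 4 of each list, 10 fixed genes and up to 5 at either end of each difference of responses, and the other called genes were named after their values were seen; results for a few genes are not reported here. The members and the 30 lists (625 genes) were chosen with earlier results of these data known. Alternatives were the filter, pseudocount, scaling, variance trend, libraries fitted, a replicate block and each library left out.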

Additional observations from a re-analysis of the deposited data

Results flagged for a closer look

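The response of Lnc956 knockout cells differed from that of combined-loss cells for 13 named genes (interaction in limma, 2 libraries per group). Values are the knockout's change minus the other on the log2 scale. Apart from the 2 snoRNA rows the limma adjusted p ran from 0.000663 to 0.0348. The knockout's response was higher for Lars2 (1.89), Nkx2-9 (1.78), Btg2 (1.64), Sp6 (1.20), Ddit4l (1.17), Mylip (1.06), Tob1 (0.83) and Cdkn1a (0.79). It was lower for Spry2 (-0.83), Epha2 (-1.03), Smad7 (-1.17) and the rows of Snora16a and Snora34. These 2 rows are listed at 0 in both 3 h libraries of the knockout and in all combined-loss libraries, so no value is given for them. Lars2, a mitochondrial tRNA synthetase gene, had 48.4 and 74.4 FPKM in knockout cells at 3 h, against 38.1 and 53.6 FPKM at 0 h, and 63.2 and 56.0 FPKM in combined-loss cells at 3 h, against 179.6 and 158 FPKM at 0 h, so the larger change was in combined-loss cells.

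Against P53 knockdown cells (interaction in limma) the adjusted p ran from 0.000841 to 0.0383, apart from the snoRNA rows. The knockout's response was higher for Apoo-ps (6.54), Gm20594 (1.54), Kif18a (1.22), Soga3 (1.21), Gm13157 (1.20), Zfp42 (0.88) and Cir1 (0.77). It was lower for 1700030L20Rik (-0.83), Pvrl4 (-1.04), Reg2 (-1.08), Slc25a42 (-1.16), Klhl26 (-1.18), Scn3b (-1.30) and again Snora16a (-3.81) and Snora34 (-5.10). Gm20594 was listed at 0 in all 4 knockout libraries and at 0 in P53 knockdown cells at 3 h, against 2.64 and 1.31 FPKM at 0 h. Its call rests on the P53 knockdown libraries at 0 h and is no support for a response of the knockout. Reg2 was listed at 0 in all 4 P53 knockdown libraries. In those cells 1700030L20Rik was listed at 0 and 0.244 FPKM at 3 h, and at 0 in both libraries at 0 h. The call of this lncRNA rests on the knockout libraries at 0 h, where it was high, and is no support either. Both sets of differences use the same 4 knockout libraries.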

How the results depend on the processing

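The 64 calls of knockout cells at 3 h became 116 with a pseudocount of 0.1, 3 in a fit to the 4 libraries alone and 35 to 56 without 1 knockout library each. Without 1 library each the 16 called genes with a P53 site became 7 to 9 and the 40 with a KLF4 site 17 to 33, chosen as an alternative after seeing the data, while site counts under a stricter q, overlap or distance stayed within 1.5 times. The 15 differences from the combined-loss response became 30 with no filter on low values, 7 with only the 8 libraries compared and 6 to 21 without 1 library each. The 42 differences from the P53 knockdown response became 70, 2 and 16 to 86. A replicate block gave 58, 13 and 23 calls, and crossing the combined-loss numbers at 3 h, chosen after seeing the data, gave 11. Same-numbered libraries correlated in their deviations by 0.06 in knockout, -0.23 in combined-loss and 0.51 in P53 knockdown cells, over 2 pairs each, so the numbers are not taken to pair samples. The sign turned in uncalled genes only: Trp53 was 0.014 and Snhg12 0.0085 after quantile scaling, and without 1 library each Klf4 ran between -0.15 and 0.069 and Snhg12 between -0.047 and 0.016. The cause of these shifts was not tested, apart from the fewer libraries in the smaller fits. The gap in median change between the longest and shortest genes was -0.04 and 0.05 with single 3 h libraries. Depth is unknown, and 2 libraries per group with 2 labelled doses limit the precision.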
